A study of Mus musculus with 6 samples.

Results

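The 52 genes described here form the path from glucose uptake to pyruvate and lactate, the entry of pyruvate into mitochondria, the oxygen-sensing machinery and a set of hypoxia-responsive genes. They were taken by name from the probe table, with unambiguous older names counted, and 50 of them had at least 1 of 90 probes, out of 45281 probes on the array. Hk2 and Ldhb were matched to no probe and are not analysed here. The arrays compare the basal transcripts of 2 mouse lines described as colorectal cancer cells. MC38 cells are sensitive to eicosapentaenoic acid (EPA), a long-chain polyunsaturated fatty acid, and MC38r cells are resistant after continuous exposure to EPA, with a 6-fold higher IC50. RPMI medium held 10% foetal calf serum for both, cells were taken at 70% confluence, and each line is represented by 3 arrays. The labels do not say that the replicates came from separate cultures, so p-values measure only the spread between these arrays, which may be technical. Since each kind is 1 line, effects of resistance and other differences of the lines cannot be told apart.

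Glycolysis splits glucose into pyruvate and yields ATP without oxygen. Pyruvate is then either reduced to lactate and exported or oxidised in mitochondria by the pyruvate dehydrogenase complex, which the PDK kinases switch off. When oxygen is scarce, prolyl hydroxylases of the EGLN family no longer mark the HIF alpha proteins for destruction by VHL, and HIF then raises the transcription of glucose carriers, most glycolytic enzymes, PDK1, VEGFA and other genes. HIF alpha is controlled mainly at the protein level, which arrays do not read.

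All values are normalized log2 signals, in the order of replicates 1, 2 and 3 of a line, and each change is MC38r against MC38. A probe was called above background where its detection p was under 0.01. Between 28.35% and 30.52% of all probes were above background on an array, and the lowest signals called so lay between 5.19 and 5.36. MC38 replicate 2 and MC38r replicate 1 deviated together from the means of their lines (correlation of 0.617 across probes), so counts are also given without them. Housekeeping control signals were lower on the MC38r arrays (10271 to 10673) than on the MC38 arrays (11552 to 12858) before normalization. The biotin, hybridisation and low-stringency controls were also lower on the MC38r arrays without overlap, and their part in the results was not tested. The MC38 arrays occupy the first sections of the chip and the MC38r arrays the last, so section and line cannot be told apart. Of 12 intestinal epithelial markers, 8 were not above background on any array, among them Epcam, Cdh1 and Krt20, and only Cdx2 and Lgals4 were above background on all 3 arrays of a line, in both cases MC38r. Of 8 fibroblast markers, 6 were above background on all MC38 arrays and 3 on all MC38r arrays. Of the 6 measured, 3 were lower in MC38r: Col3a1 (at least 2.37-fold), Col1a2 (1.97-fold) and Pdgfrb (at least 1.27-fold). Pdgfra (2.13-fold) and Dcn (1.76-fold) were higher in MC38r, and Col1a1 did not pass. The summed signal of the list was 544 to 630 in MC38 and 646 to 740 in MC38r. Different probes bind with different strength, so signals of different genes are not set against each other. An isoform is named as the prevailing one only where its relatives were not above background. Such a naming holds for the probes used only, as further probes of the detected genes Pgk1, Pgam1 and Vegfa were not above background on any array.

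Of the 50 genes with a probe, 30 were above background on all MC38 arrays, 28 on all MC38r arrays, and 15 on no array. A total of 33 genes passed the filter (above background on at least 3 of the 6 arrays). In the limma fit, 19 of them were lower in MC38r, where 27.4% of the 9799 genes tested were lower, and 4 were higher, where 28.6% of all genes were higher. The remaining 10 did not pass the test at an adjusted p of 0.05, so 23 of 33 changed, against 56.1% of all genes. As fitted, at least a 2-fold change was called for 13 lower genes, against 12.2% of all genes, and for 3 higher genes, against 11.7%. The 13 include Slc16a3, Car12 and Ankrd37, whose probes were at background in MC38r. Their bounds are lower, at 1.53-fold, 1.35-fold and 1.69-fold. By probe, 30 of the 47 kept were called (55.1% of all 13990 probes), 25 of them lower (27.0% of all) and 5 higher (28.1% of all). The arrays of the lines did not overlap for 25 of the 33, against 62.5% of all genes. The median log2 change of the 33 was -0.70, against 0.03 for all genes. By the probe that stands for the gene, Eno2, Slc16a3, Car12 and Ankrd37 were above background in 1 line only. Egln3 and Vhl were so on 1 array of the other line, and for these 6 genes the filter favoured a difference. Among the 26 genes above background on all 6 arrays, 15 were lower and 3 higher. The share of all genes under this condition was not counted, and the 27.4% and 28.6% cover every gene tested. Without MC38 replicate 2 and MC38r replicate 1, 20 of the 33 were lower and 5 higher. In that fit 6045 of all 9799 genes were called in either direction, against 5494 with all arrays.

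**Figure D1:**
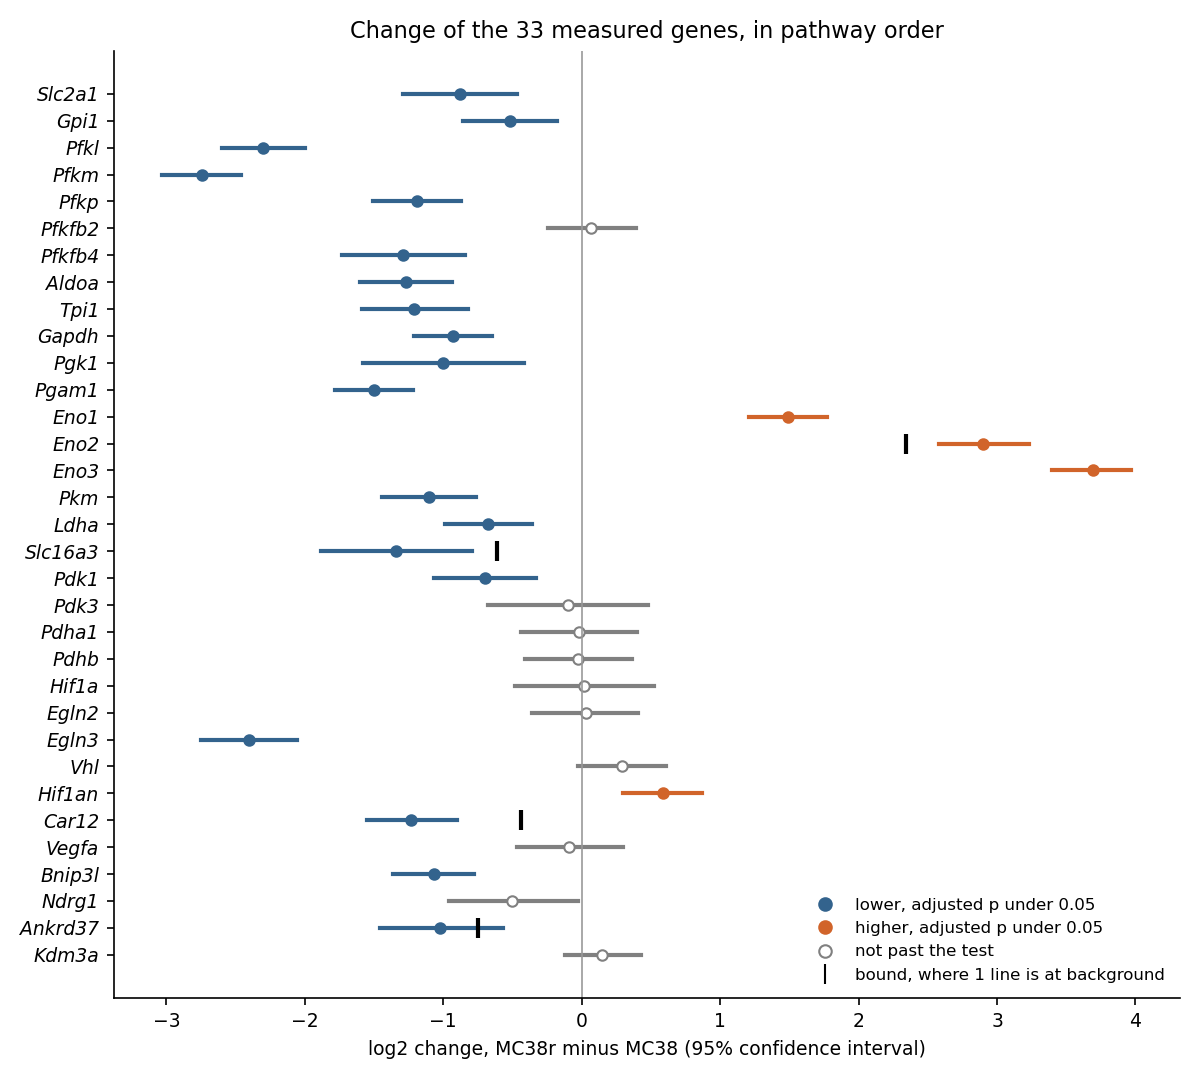
Change of each measured gene between the lines. The x axis is the log2 change (MC38r minus MC38), points are fitted values from 3 arrays a line, lines are 95% confidence intervals, filled points passed the test and black ticks mark the bound for genes at background in 1 line. Genes run from glucose uptake at the top to hypoxia targets at the bottom. The 3 enolases stand at 1.49, 2.90 and 3.69, to the right of every other gene shown.

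Along the path from glucose to lactate the listed transcripts of nearly every measured step were lower in MC38r, and among these the enolase step alone was higher. No hexokinase gene could be tested, and Adpgk, an ADP-dependent glucokinase outside the list, was 1.81-fold higher. Outside enolase, 12 carrier and enzyme genes from Slc2a1 to Ldha were measured, and all 12 were lower, by 1.44-fold to 6.69-fold. This grouping was made after the values were seen, and the share of all genes that were lower is 27.4%.

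Slc2a1 encodes GLUT1, the basal glucose carrier of most cultured cells. Its signal was 10.91, 10.37 and 10.86 on the MC38 arrays and 9.58, 9.95 and 9.95 on the MC38r arrays. The arrays did not overlap, and Slc2a1 was 1.84-fold lower (log2 change -0.88, 95% confidence interval -1.29 to -0.47, adjusted p = 0.0027). Slc2a3 and the insulin-responsive carrier Slc2a4, with 1 probe each, were not above background on any array. By these probes Slc2a1 was the prevailing one of the 3 carriers in both lines. Hexokinases trap glucose in the cell as its phosphate. Hk1 was above background on 2 MC38 arrays and on no MC38r array, too few for the test, and Hk3 was not above background on any array. Gpi1, which turns glucose phosphate into fructose phosphate, was 1.44-fold lower (10.98 ± 0.21, SD, n = 3, to 10.46 ± 0.14, limma adjusted p = 0.015). This smallest of the 12 falls did not pass without MC38 replicate 1 (-0.45, adjusted p = 0.062) or MC38 replicate 3 (-0.47, adjusted p = 0.055).

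Phosphofructokinase catalyses the committed and most tightly regulated step of glycolysis, and all 3 of its subunit genes were lower in MC38r. The muscle-type subunit Pfkm measured 10.55, 10.42 and 10.58 in MC38 against 7.70, 7.87 and 7.75 in MC38r. This 6.69-fold fall (log2 change -2.74, interval -3.03 to -2.46, adjusted p = 1.8e-07) was the largest of the path, and only 2.0% of all genes tested had a lower fitted change. The other Pfkm probes that passed the filter fell too (8.25 ± 0.07 to 5.13 ± 0.24 and 6.98 ± 0.13 to 5.23 ± 0.07), to signals at the detection limit, above background on 1 and 2 MC38r arrays. The liver-type subunit Pfkl measured 11.36, 11.16 and 11.41 in MC38 against 8.94, 8.97 and 9.12 in MC38r, 4.93-fold lower (adjusted p = 7.7e-07). A dim second Pfkl probe near the detection limit did not move with it (5.61 ± 0.24 to 5.70 ± 0.29, adjusted p = 0.71), so the Pfkl result rests on 1 probe, and the mean of both probes changed by -1.11. The platelet-type subunit Pfkp measured 7.91, 7.64 and 7.95 in MC38 against 6.49, 6.69 and 6.74 in MC38r, 2.28-fold lower (adjusted p = 1e-04). A further Pfkp probe was 1.6-fold lower. All 3 subunits were above background on every array, so none could be named as the prevailing one in either line, but the brightest probes shifted unequally. Relative to Pfkl on the same array, Pfkp moved by 1.11 and Pfkm by -0.44 on the log2 scale from MC38 to MC38r, without overlap in both cases. In the exact permutation test of these shifts, two-sided, p was 0.1, the smallest that 3 arrays against 3 can give (0.12 after Benjamini-Hochberg adjustment over the 6 isoform pairs measured, of 19 listed). With the mean of all kept probes the log2 changes were -0.94 for Pfkp and -1.11 for Pfkl, so the shift of Pfkp rests on the brighter Pfkl probe.

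PFKFB enzymes make and remove fructose 2,6-bisphosphate, the activator of phosphofructokinase. Pfkfb4 measured 7.83, 7.18 and 7.78 in MC38 against 6.07, 6.38 and 6.48 in MC38r, a 2.44-fold fall without overlap (adjusted p = 0.00049). Pfkfb2 stood just above background in both lines (5.41 ± 0.10 and 5.49 ± 0.18, adjusted p = 0.68), with an interval of -0.24 to 0.39 for its log2 change. Pfkfb1 and Pfkfb3 were not above background on any array.

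The middle of the path fell more evenly. Aldolase A, Aldoa, measured 11.47, 11.79 and 11.49 in MC38 against 10.45, 10.33 and 10.16 in MC38r, 2.42-fold lower (adjusted p = 7.8e-05). Aldoc, the brain-type aldolase, was not above background on any array, so Aldoa prevailed over it in both lines. Tpi1, which interconverts the triose phosphates, measured 13.49, 13.06 and 13.45 in MC38 against 11.89, 12.19 and 12.31 in MC38r, 2.31-fold lower (adjusted p = 0.00027). Its other probes were 2.30-fold and 3.11-fold lower. Gapdh, which makes the NADH of glycolysis and often serves as a reference gene, measured 13.17, 13.29 and 13.15 in MC38 against 12.20, 12.26 and 12.34 in MC38r. That is a 1.91-fold fall without overlap (adjusted p = 0.00019), in a gene with many processed copies in the mouse genome that a probe may also read. Pgk1, the first ATP-yielding step, varied most among arrays, with 11.83, 12.19 and 11.25 in MC38 and 11.16, 10.45 and 10.66 in MC38r. Its arrays still did not overlap, and it was 2.00-fold lower (interval -1.58 to -0.42 on the log2 scale, adjusted p = 0.0087). Without the filter on dim probes the adjusted p was 0.054, and a dim Pgk1 probe did not pass (-0.37, adjusted p = 0.058). Pgam1, the phosphoglycerate mutase next in line, measured 10.10, 10.29 and 10.12 in MC38 against 8.61, 8.70 and 8.68 in MC38r, 2.83-fold lower (adjusted p = 9.3e-06). The muscle-type mutase Pgam2 was not above background on any array.

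Enolase, which makes phosphoenolpyruvate, was the exception: all 3 of its measured genes were higher in MC38r. Eno1, the ubiquitous alpha enolase, measured 12.45, 12.65 and 12.53 in MC38 against 14.04, 13.99 and 14.09 in MC38r, 2.81-fold higher (log2 change 1.49, interval 1.21 to 1.77, adjusted p = 9.7e-06). Eno3, the beta enolase known from muscle, was at 7.18 on each MC38 array and at 11.01, 10.80 and 10.79 in MC38r. This 12.9-fold rise (interval 3.40 to 3.97 on the log2 scale, adjusted p = 2.9e-08) was exceeded by 0.57% of all genes tested. Eno2, the gamma enolase known from neurons, measured 4.63, 4.89 and 4.63 in MC38, not above background on any array, and at 7.44, 7.70 and 7.72 in MC38r. It rose by at least 5.05-fold, and its fitted log2 change of 2.90 (adjusted p = 2.8e-07) became 1.94 with a background offset of 50. Each enolase has 1 probe on the array, and the arrays of the lines did not overlap for any of them.

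In MC38, Eno1 and Eno3 were above background on every array and Eno2 on none, and in MC38r all 3 were. Relative to Eno1 on the same array, Eno3 gained 4.57-fold (exact permutation p = 0.1, the smallest possible, and 0.12 adjusted). No such ratio is given for Eno2, which was at background in MC38. Of 8 skeletal muscle markers none was above background on all arrays of either line, 5 were on no array, Ckm and Myod1 among them, and the summed signal of the list, near background, was 215 to 231 in MC38 and 200 to 209 in MC38r. A probe named for Eno1b, a near-identical copy of Eno1 on another chromosome, fell by 0.49 on the log2 scale (5.90 ± 0.10 to 5.41 ± 0.21, adjusted p = 0.018), and which of the copies each probe reads cannot be told from the names. Eno2 lies on chromosome 6 with Tpi1 and Gapdh, which went the opposite way, with 4 annotated genes between Eno2 and Tpi1 and 30 between Eno2 and Gapdh. Of the genes between Eno2 and Tpi1, Spsb2 passed the filter, and it rose by 0.81 on the log2 scale (adjusted p = 0.00039).

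**Figure D2:**
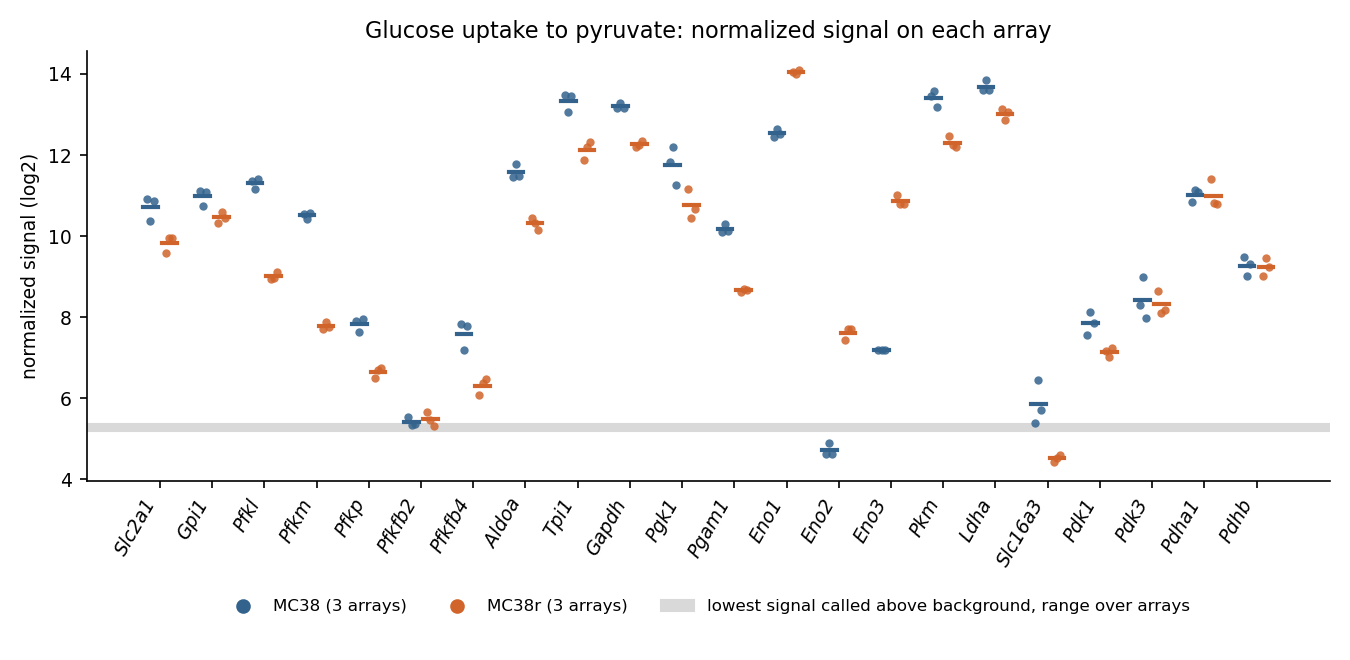
Normalized signal of each measured gene of the path on every array. The y axis is the log2 signal, dots are the 3 arrays of MC38 and of MC38r, bars are means and the grey band is the range over arrays of the lowest signal called above background. Genes follow the order of the path, and their heights are not comparable with each other. The MC38r dots lie below the MC38 dots from Slc2a1 to Pgam1, apart from Pfkfb2, and above them for Eno1, Eno2 and Eno3.

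The final glycolytic step and the lactate branch were lower again. Pyruvate kinase, Pkm, measured 13.45, 13.57 and 13.19 in MC38 against 12.48, 12.24 and 12.19 in MC38r, 2.14-fold lower (adjusted p = 0.00024). A second Pkm probe was 2.16-fold lower, and neither probe is known here to separate the M1 and M2 splice forms. A probe under the name Pk3, an older name shared by Pkm and Prickle3 and so not counted, fell by 0.95 on the log2 scale. Ldha, which reduces pyruvate to lactate, measured 13.61, 13.85 and 13.61 in MC38 against 13.13, 12.86 and 13.05 in MC38r, 1.60-fold lower without overlap (adjusted p = 0.0027). A probe named for the pseudogene Ldhb-ps, chosen after its values were seen, went from 8.86, 8.92 and 8.74 in MC38 to 4.37, 4.33 and 4.42 in MC38r, where it was not above background. It was lower by at least 12.1-fold (adjusted p of the fitted change = 8.7e-09), and whether it reads Ldhb transcripts was not tested. Slc16a3 encodes MCT4, the lactate exporter of glycolytic cells. It measured 5.39, 6.46 and 5.71 in MC38 against 4.44, 4.52 and 4.59 in MC38r, not above background there. Slc16a3 was lower by at least 1.53-fold (adjusted p of the fitted change = 0.0013). With the authors' series values this call was lost (-0.34 on the log2 scale, adjusted p = 0.058), and another Slc16a3 probe was above background on 1 MC38r array. The related carrier Slc16a1 was not above background on any array.

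At the entry to mitochondria 1 of 4 measured genes of the list was lower, near the 27.4% of all genes. None was higher, against 28.6% of all genes. Pdk1, which phosphorylates and silences pyruvate dehydrogenase, measured 7.57, 8.12 and 7.85 in MC38 against 7.16, 7.02 and 7.25 in MC38r, 1.63-fold lower (adjusted p = 0.0054). Its paralogue Pdk3 measured 8.29, 8.99 and 7.97 in MC38 against 8.65, 8.11 and 8.19 in MC38r and did not pass (log2 change -0.10, interval -0.68 to 0.48, adjusted p = 0.76). The highest Pdk3 value of each line came from MC38 replicate 2 and MC38r replicate 1. Pdk2, with 1 probe, was not above background on any array, so Pdk1 and Pdk3 were the kinases detected in both lines. The shift of Pdk1 against Pdk3 was -0.60 on the log2 scale (exact permutation p = 0.1, the smallest possible). The E1 subunits of the complex itself did not pass: Pdha1 changed by -0.02 (interval -0.44 to 0.40, adjusted p = 0.93) and Pdhb by -0.03 (interval -0.41 to 0.36, adjusted p = 0.91). The E2 subunit gene Dlat, from a further list, was 1.50-fold lower (6.83 ± 0.14 to 6.24 ± 0.09, adjusted p = 0.0046). A dimmer Pdhb probe rose by 0.57 (6.18 ± 0.28 to 6.76 ± 0.18, adjusted p = 0.019), so the Pdhb probes disagree. The gluconeogenic phosphatases Fbp1 and Fbp2 were not above background on any array.

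**Figure D3:**
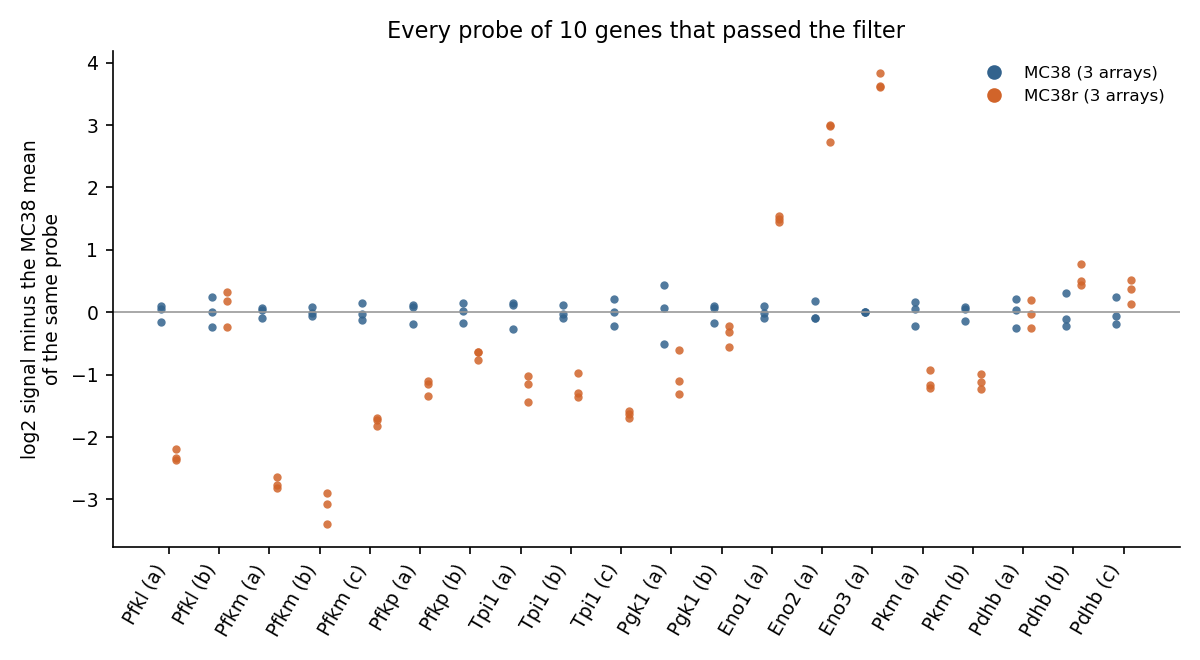
Every probe that passed the filter for 10 genes of the path. The y axis is the log2 signal minus the MC38 mean of the same probe, dots are single arrays, and letters separate the probes of 1 gene, the brightest being (a). All probes of Pfkm, Pfkp, Tpi1 and Pkm lie below 0 in MC38r, Pfkl (b) and Pdhb (a) scatter around 0, and the enolase probes lie above 0.

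The upstream sequences of 7 of these genes are printed because the 3 enolases went against the path and because HIF binds a short core, ACGTG or GCGTG, that was searched on both strands. Each is the first RefSeq window by position, 250 bases before an annotated start on the GRCm38.p6 build, written 5′ to 3′ on the strand of the gene. Capitals mark ACGTG and GCGTG and their reverse complements. The letters CACGTG hold a match on both strands. The lower genes printed, Slc2a1, Ldha, Pgk1 and Egln3, all hold ACGTG and do not stand for every lower gene. Gpi1, Pfkl, Pfkp, Pfkfb4, Tpi1, Gapdh, Pdk1 and Car12 were lower too, hold no ACGTG in any searched window and are not printed.
Eno1 promoter, chr4:150236458-150236707, plus strand: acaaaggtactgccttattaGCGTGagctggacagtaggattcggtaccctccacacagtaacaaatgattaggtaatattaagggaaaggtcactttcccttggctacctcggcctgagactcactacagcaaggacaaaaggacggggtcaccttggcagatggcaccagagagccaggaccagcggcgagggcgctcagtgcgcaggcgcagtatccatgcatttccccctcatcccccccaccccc
Eno2 promoter, chr6:124769674-124769923, minus strand: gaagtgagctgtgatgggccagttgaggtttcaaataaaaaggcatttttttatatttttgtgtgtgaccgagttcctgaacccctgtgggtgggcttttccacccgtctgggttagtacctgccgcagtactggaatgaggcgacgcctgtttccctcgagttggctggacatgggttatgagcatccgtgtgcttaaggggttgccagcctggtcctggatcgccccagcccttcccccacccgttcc
Eno3 promoter, chr11:70656926-70657175, plus strand: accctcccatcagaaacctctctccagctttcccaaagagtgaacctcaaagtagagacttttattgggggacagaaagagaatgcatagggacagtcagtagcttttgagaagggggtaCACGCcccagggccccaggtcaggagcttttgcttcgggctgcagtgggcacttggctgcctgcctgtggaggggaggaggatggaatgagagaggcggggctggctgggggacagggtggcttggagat
Slc2a1 promoter, chr4:119108495-119108744, plus strand: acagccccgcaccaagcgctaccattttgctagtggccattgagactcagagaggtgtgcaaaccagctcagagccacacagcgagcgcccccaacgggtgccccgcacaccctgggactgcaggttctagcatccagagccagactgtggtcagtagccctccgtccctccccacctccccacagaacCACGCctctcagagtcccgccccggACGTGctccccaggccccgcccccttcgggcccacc
Ldha promoter, chr7:46845554-46845803, plus strand: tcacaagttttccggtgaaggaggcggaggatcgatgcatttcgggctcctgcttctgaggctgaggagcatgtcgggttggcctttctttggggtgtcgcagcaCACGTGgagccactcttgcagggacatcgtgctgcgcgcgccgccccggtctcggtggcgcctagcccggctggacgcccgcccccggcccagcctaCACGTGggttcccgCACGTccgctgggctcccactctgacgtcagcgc
Pgk1 promoter, chrX:106186850-106187099, plus strand: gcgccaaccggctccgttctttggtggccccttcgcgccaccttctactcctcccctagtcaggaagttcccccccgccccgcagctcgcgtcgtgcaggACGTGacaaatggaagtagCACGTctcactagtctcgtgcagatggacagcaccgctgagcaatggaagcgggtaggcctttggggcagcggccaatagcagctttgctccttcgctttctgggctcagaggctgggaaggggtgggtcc
Egln3 promoter, chr12:54203875-54204124, minus strand: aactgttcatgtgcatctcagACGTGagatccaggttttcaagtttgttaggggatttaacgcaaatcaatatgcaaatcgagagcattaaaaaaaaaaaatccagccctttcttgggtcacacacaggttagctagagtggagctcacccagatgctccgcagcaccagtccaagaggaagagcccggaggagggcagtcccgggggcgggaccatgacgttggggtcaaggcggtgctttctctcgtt

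RefSeq windows were found for 47 of the 52 genes (70 windows), and not for Slc2a3, Slc2a4, Epas1, Bnip3l and Ndrg1. ACGTG stood in at least 1 window of 10 of the 18 genes that were lower and had a window (55.6%), among them Slc2a1, where it lies at position -36 from the start. It stood in none of the 4 that were higher, which are the enolases and Hif1an. It was also present in 6 of the 9 genes that did not pass the test (66.7%) and in 9 of the 16 that were not measured (56.2%). Of all 27025 genes with windows, 18.5% held it. GCGTG stood in 10 of the 18 lower and 2 of the 4 higher genes, against 30.9% of all genes. Base composition was not matched in these counts, a match of 5 letters is not a binding site, and its absence from a window says nothing about sequence outside it.

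Of 5 measured oxygen-sensing genes, 1 was lower and 1 higher, against 56.1% of all genes called in either direction. Hif1a, the inducible alpha subunit, measured 6.94, 7.46 and 7.13 in MC38 against 7.66, 6.87 and 7.05 in MC38r. The arrays overlapped, and the log2 change was 0.02 (interval -0.48 to 0.52, adjusted p = 0.95). The data are thus compatible with no change and with a change in either direction within this interval. Epas1, which encodes the second HIF alpha protein, was not above background on any array, so Hif1a was the prevailing alpha subunit in both lines. That rests on 1 of 3 Hif1a probes, as the others were not above background on any array either. Among the prolyl hydroxylases, Egln3 measured 7.40, 7.50 and 7.39 in MC38 against 4.86, 4.91 and 5.31 in MC38r, above background there on 1 array, a 5.29-fold fall as fitted (adjusted p = 1.5e-06). Its log2 change of -2.40 became -1.63 with a background offset of 50 and -1.16 with the authors' series values. Egln3 is itself a HIF-induced gene. The other 2 Egln3 probes were not above background on any array. Egln1, the main oxygen sensor, was above background on 1 MC38 array alone and was not tested, and Egln2 was near the limit in both lines (log2 change 0.03, adjusted p = 0.91). Egln3 was thus the EGLN gene above background on all MC38 arrays, and no EGLN gene was on all MC38r arrays. Hif1an, the asparaginyl hydroxylase FIH that blocks HIF activity, measured 7.05, 7.15 and 7.28 in MC38 against 7.72, 7.72 and 7.79 in MC38r, 1.50-fold higher without overlap (adjusted p = 0.0035). Vhl, the ubiquitin ligase subunit, did not pass (0.29, adjusted p = 0.11), although it did without MC38 replicate 2 (0.41, adjusted p = 0.021).

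Of the 9 hypoxia targets on the list, 3 were lower, 3 did not pass and 3 were not above background on any array. The share of all tested genes that were lower is 27.4%. Bnip3l, a receptor that marks mitochondria for autophagy, measured 10.21, 10.07 and 9.96 in MC38 against 8.97, 9.0 and 9.08 in MC38r, 2.10-fold lower (adjusted p = 1e-04). Its relative Bnip3, with 1 probe, was not above background on any array, so by these probes Bnip3l was the prevailing one in both lines. Car12, a membrane carbonic anhydrase, measured 5.77, 5.44 and 5.82 in MC38 against 4.38, 4.53 and 4.44 in MC38r, not above background there. Car12 was lower by at least 1.35-fold (adjusted p of the fitted change = 8.7e-05). Car9, a classical hypoxia marker, was not above background by any of its 3 probes. Ankrd37, an ankyrin-repeat protein gene, measured 6.26, 5.79 and 5.93 in MC38 against 4.59, 5.16 and 5.18 in MC38r, not above background there. Ankrd37 was lower by at least 1.69-fold (adjusted p of the fitted change = 0.0019). The angiogenic factor Vegfa did not pass, with 8.54, 8.61 and 8.82 in MC38 and 8.46, 8.89 and 8.36 in MC38r (log2 change -0.09, interval -0.47 to 0.30, adjusted p = 0.69). A second Vegfa probe changed by -0.31 (adjusted p = 0.071). Ndrg1, a stress-responsive gene, changed by -0.50 (interval -0.96 to -0.03, adjusted p = 0.066) by a probe with the array name Ndrl. A dimmer Ndrg1 probe did not pass either (-0.17, interval -0.59 to 0.24, adjusted p = 0.45). Ndrg1 passed in 4 of the 19 alternatives. These were array weights and the fits without MC38 replicate 1 (-0.63, adjusted p = 0.047) or MC38r replicate 1 (-0.64, adjusted p = 0.031). The fit without MC38 replicate 2 and MC38r replicate 1 was the last (-0.44, adjusted p = 0.017). The histone demethylase Kdm3a did not pass by any of the 3 probes that could be tested (0.15, -0.16 and -0.23). Adm, the vasodilator adrenomedullin, was not above background on any array.

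**Figure D4:**
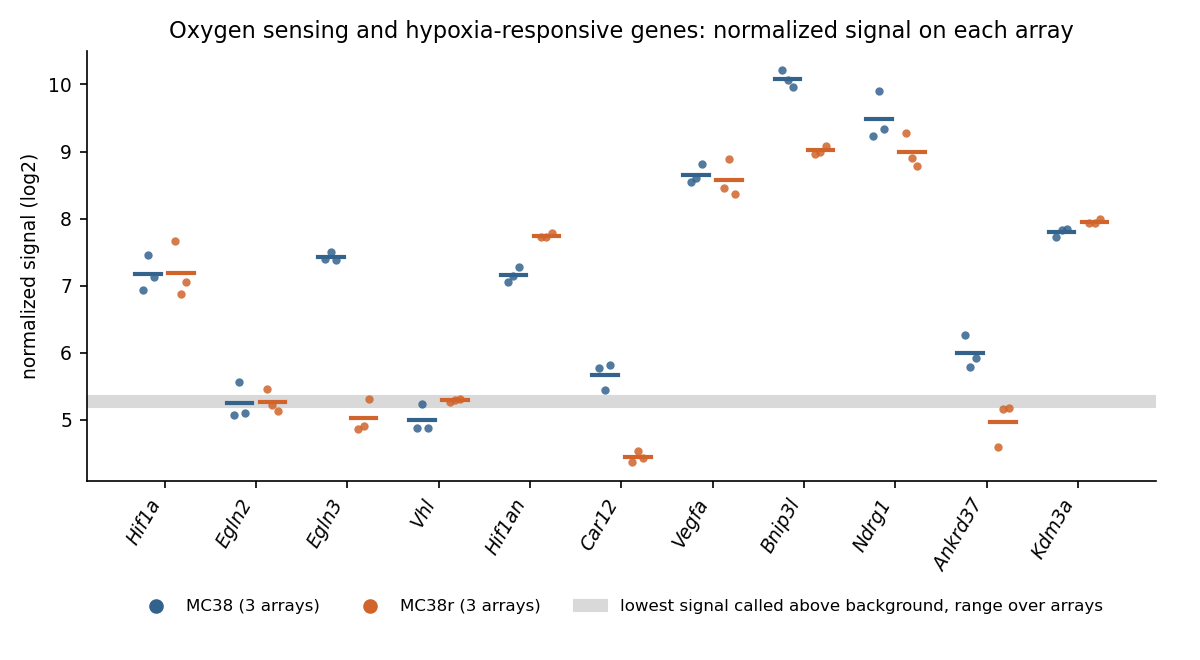
Normalized signal of the measured oxygen-sensing and hypoxia-responsive genes on every array. The y axis is the log2 signal, dots are the 3 arrays of each line, bars are means and the grey band is the range over arrays of the lowest signal called above background. Egln3, Car12, Bnip3l and Ankrd37 are lower and Hif1an is higher in MC38r without overlap, while the arrays of the lines overlap for Hif1a, Vegfa and Ndrg1.

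Genes of adjoining pathways, from lists without the 52 genes, were read in the same fit. Of 12 measured further genes of glucose transport and pyruvate handling, 4 were lower and 3 higher, near the 27.4% and 28.6% of all genes. The sugar epimerase Galm (at least 1.93-fold), the mitochondrial glycerol phosphate dehydrogenase Gpd2 (2.08-fold) and the carrier Slc2a6 (2.00-fold) fell most, and Pdp2 did not pass (-0.42, adjusted p = 0.11). Pdp1, the phosphatase that switches pyruvate dehydrogenase on and so opposes Pdk1, rose 2.35-fold (5.95 ± 0.05 to 7.19 ± 0.19, adjusted p = 6.9e-05). Adpgk, an ADP-dependent glucokinase, rose 1.81-fold, and Pgam5, a mitochondrial phosphatase despite its name, 1.71-fold.

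In the pentose phosphate pathway, which branches off below hexokinase and supplies NADPH, 4 of 10 measured genes were lower and 1 was higher, so that 5 were called, near the 56.1% of all genes. Tkt (2.58-fold), Pgd (2.29-fold) and the first enzyme G6pdx (1.93-fold) fell most, Rpe rose 1.48-fold, and Pgls did not pass (0.57, adjusted p = 0.061). In glycogen metabolism 6 of 9 were lower and 1 higher, against 27.4% and 28.6% of all genes. Pgm2, a phosphoglucomutase, was 5.18-fold lower (12.16 ± 0.18 to 9.79 ± 0.18, adjusted p = 1.5e-06) and the phosphorylase Pygb 1.83-fold, while the phosphorylase kinase subunit Phkb rose 1.85-fold and Ppp1r3c did not pass (-0.15, adjusted p = 0.63).

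Of 19 measured genes in a further list of hypoxia-responsive genes, 13 were lower and none was higher, against 27.4% of all genes lower. Some of these, Lox and Tgfbi among them, passed the filter through MC38 alone. Of the 15 genes above background on all 6 arrays 10 were lower, and the share of all genes under this condition was not counted. The median log2 change of this list was -0.87. The collagen cross-linking enzyme Lox was lower by at least 146-fold, the matrix protein Tgfbi by at least 5.78-fold, and the collagen prolyl hydroxylase subunit P4ha2 3.96-fold (10.02 ± 0.31 to 8.04 ± 0.29, adjusted p = 3.2e-05). Stc2 did not pass (-0.34, adjusted p = 0.17). Of 19 measured HIF partners and regulators of glucose use, 3 were lower, 4 were higher and 12 did not pass, against 56.1% of all genes called in either direction. Txnip, a glucose-induced arrestin that promotes removal of GLUT1 from the surface, rose 4.03-fold (10.97 ± 0.36 to 12.98 ± 0.19, adjusted p = 2.6e-05), while the related arrestin gene Arrdc4 was lower by at least 2.26-fold. Siah1a, a ubiquitin ligase known to act on prolyl hydroxylases, rose 2.62-fold, its paralogue Siah2 1.43-fold (adjusted p = 0.05), and Myc 1.40-fold. Eloc, the elongin C subunit of the VHL ligase, was 3.43-fold lower, and the coactivator Ep300 1.27-fold lower. Tsc2 did not pass (-0.41, adjusted p = 0.098).

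The authors' deposited table of their own comparison, which stops at an unadjusted p of 0.05, lists 20 of the 52 genes, 16 lower and 4 higher in MC38r, among 6244 entries of which 3010 are lower and 3234 higher. In the authors' deposited table Eno3 was 11.6-fold, Eno2 5.36-fold and Eno1 2.77-fold higher, and Pfkm was 5.69-fold lower. Of the 20, the adjusted p of the authors' deposited table was under 0.05 for 4 genes, which are Eno1, Hif1an, Pfkm and Gapdh.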

How the data were processed

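Total RNA of 6 samples, 3 labelled MC38 and 3 labelled MC38r, was hybridised as biotin-labelled cRNA to Illumina MouseWG-6 arrays. The probe table came from GenomeStudio 1.9.0, in which the authors had applied quantile normalization, per the file headers. Its deposited signals are intensity on a linear scale, and 35.03% to 35.1% of them lie below 0, so background had been subtracted. The deposited detection value is a score from 0 to 1, taken as 1 minus the detection p. The deposited bead number is a count, with a median of 42 per probe of these genes. In the authors' deposited comparison the ratio is MC38r over MC38, beside its log2 value and an unadjusted and adjusted p-value, and its test is not given in the sources used here. The authors' series values are intensity per gene, and control probes have a deposited intensity per array that still holds its background. The gene-level profile and the table called non-normalized were not used.

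Signals were corrected with the normexp method of limma 3.58.1 (nec, offset 16), transformed to log2 and quantile-normalized in R 4.3.3. A probe was kept where 3 or more arrays had its detection p below 0.01, which left 13990 probes of 9799 genes. All were fitted together (lmFit, eBayes, line as the only term), p-values were adjusted over all kept probes (Benjamini-Hochberg, 0.05), and the brightest kept probe stood for a gene. The fit was also run on data simulated with independent normal noise from its own variances. That simulation leaves out the shared deviation of MC38 replicate 2 and MC38r replicate 1, so no conclusion is drawn from it. Precision is limited by the number of arrays (median standard error of a log2 change 0.16). A gene at background in 1 line has its fold as a bound, for which every array contributes its dimmest detected signal. An adjusted p beside such a fold belongs to the fitted change, and the bound was not tested. Array names were matched to symbols of GRCm38.p6 (22775 of 30854 names), older names only where they belong to 1 gene. The arrays name no build.

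Members and lists were chosen with earlier results of these data known. Values on every array are given for genes past the test with a log2 change of at least 1 and no overlap, and for Slc2a1, Ldha, Pkm, Pdk1, Gapdh, Hif1a and Vegfa. From each other list come up to 3 largest rises and falls and the largest change that did not pass. One gene that this rule names is not reported here. Pdk3, Pgk1 and Hif1an were added to those with values on every array after their values were seen. The replicate numbers did not pair the arrays: same-numbered arrays of the lines had correlations of -0.465, -0.437 and 0.303 in their deviations from the line means.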

Additional observations from a re-analysis of the deposited data

How the results depend on the processing

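Under the 19 alternatives tried, no call among the 33 genes changed direction, and between 22 and 23 of the 23 calls were kept. The number lower lay between 18 and 20 and the number higher between 4 and 5, also with 1 array left out at a time. The calls lost were Gpi1 (without MC38 replicate 1 or 3), Pgk1 (no filter on dim probes) and Slc16a3 (the authors' series values). Ndrg1 and Vhl passed with array weights (-0.43 and 0.39 on the log2 scale) and under some omissions of arrays. With the replicate number as a block, 19 genes were lower and 4 higher, so this replicate block changed no call. The median log2 change of the measured genes was -0.59 with an offset of 50, -0.12 with no filter on dim probes (50 genes, most of the added ones at background), -0.79 with the stricter filter (32 genes) and -0.78 to -0.64 with 1 array left out. Hif1a, which did not pass in any setting, was at -0.02 with cyclic loess, at -0.21 to 0.18 with 1 array left out and at -0.07 without MC38 replicate 2 and MC38r replicate 1, the omission chosen after seeing the data. Vegfa lay between -0.25 and 0.02 with 1 array left out. In the further lists 27 to 32 genes were lower and 8 to 11 higher with 1 array left out, against 30 and 9 with all, 31 and 13 without MC38 replicate 2 and MC38r replicate 1, and 34 and 13 with array weights. Of all 9799 genes tested, 5494 were called with all arrays, 6045 without MC38 replicate 2 and MC38r replicate 1, and 6352 with array weights. Genes near the background signal, such as Hk1, Egln1 and Egln2, are limited by it.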
